A study of Sus scrofa with 20 samples.

Results

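Atorvastatin was compared with no statin on the Heart Healthy diet in epicardial adipose tissue, the fat that lies on the heart muscle, of Ossabaw miniature pigs. The libraries were chosen by their diet label: 6 came from pigs that received atorvastatin with the Heart Healthy diet (HHD+S) and 6 from pigs on the diet alone (HHD), together 12 of the 20 libraries of the series. The diet, which both groups shared, is rich in unsaturated fat with unrefined grain, fruits and vegetables. The dose of atorvastatin, its duration and the age and sex of each pig are not in the labels used here. The other 8 libraries, of pigs given atorvastatin with the Western diet (WD+S), entered the fit but not the comparison. They had a part in the estimate of spread, the scaling of counts and the filter on low counts. With them 11366 genes were tested, and without them 10891. The labels do not state that each library of a group is a separate animal, so p-values measure the spread between these libraries.

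Statins block the mevalonate pathway, through which cells make cholesterol. Cells that run short of sterol release SREBP-2, a transcription factor that turns on the genes of cholesterol synthesis. The same pathway makes the lipid anchors of small GTPases and the side chain of ubiquinone. Epicardial fat shares its small vessels with the myocardium and holds adipocytes, fibroblasts, vessels, nerves and immune cells, with a mesothelial layer on its free surface. The title of the series names interferon signalling, the programme that cells switch on against viruses, so interferon-induced genes were among those described.

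Counts in exons summed to between 2749337 and 5221052 per library in HHD+S and between 3489991 and 5228381 in HHD. The file names carry a pool number, which the labels do not explain: HHD+S replicates 1 to 4 and HHD replicates 1 to 4 were of pool 1, and replicates 5 and 6 of each group of pool 2. Levels are given as CPM, that is, counts scaled to TMM-adjusted library sizes but not to gene length, and log2 fold changes are of HHD+S over HHD, given ± SE. Sex was unequal by sequence reads: Y-linked reads marked HHD+S replicates 3 and 5 and HHD replicate 6, and HHD replicates 3 and 5 held reads of both XIST and Y-linked genes. Over the 500 genes that varied most, the leading principal component (27.4% of the variance) set HHD+S replicates 5 and 6 apart, at 26.5 and 30.9 where no other library exceeded 7.36. The adipocyte hormone gene ADIPOQ, read in the second table, stood at 5935 to 11357 CPM (median 6558) in HHD+S, against 4619 to 10119 CPM (median 7702) in HHD, so the fat marker was high in every library. Atrial muscle RNA was low except in HHD replicate 1, where the atrial light chain MYL7 reached 36.3 CPM where HHD+S held at most 1.71 CPM and the other HHD libraries at most 4.69 CPM. Each library has a table of exon counts for the whole annotation, called the first table here, and a smaller one of gene counts, called the second table; values are from the first unless the second is named.

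No gene changed past the threshold between HHD+S and HHD. Of 11366 genes tested with edgeR's quasi-likelihood test, 0 (0%) had an adjusted p under 0.05, the lowest of them being 0.399. The unadjusted threshold of 0.05 was passed by 960 genes (8.45%), of which 536 were higher in HHD+S (4.72%) and 424 lower (3.73%), where chance alone would give 568. Without HHD+S replicates 5 and 6 it was 655 genes, 337 higher and 318 lower. Fold changes were spread about evenly around 0, with 48.1% above it and 51.9% below it. DESeq2 called 8 genes higher (0.0704%) and 3 lower (0.0264%), and limma-voom called 0. On simulated counts of these 11366 genes the edgeR test called 71 of 100 genes given a 2-fold change and 97 of 100 given a 4-fold change. Those changes were the same in all 6 HHD+S libraries, and no simulated library stood apart from its group. The calls therefore do not tell how often a change held by a few libraries would be found here. In the second table of the authors, with 6685 genes tested, 0 had an adjusted p under 0.05, the lowest being 0.340, and 583 (8.72%) passed the unadjusted threshold. Of the 374 genes past the unadjusted threshold in the first table that were also tested in the second, 372 had the same sign there. Both tables count reads of the same libraries, and 3773 of all 4181 genes tested in both had the same sign, so this is no replication. Counts of genes past the unadjusted threshold below are descriptions of lists, and every gene named had an edgeR adjusted p of 0.34 or more in the comparison of all 12 libraries.

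Genes that set the groups apart completely were few. In 13 of 11366 genes (0.114%) the 6 HHD+S libraries did not overlap the 6 HHD libraries, 7 with all HHD+S libraries above (0.0616%) and 6 with all below (0.0528%). The number of genes that chance alone would set apart was not computed, so nothing is read from this count. ANKRD6, which encodes an ankyrin repeat protein of Wnt signalling, stood at 0.952 to 3.42 CPM (median 2.66) in HHD+S, against 3.81 to 8.0 CPM (median 5.41) in HHD (log2 fold change -1.15 ± 0.24, edgeR adjusted p = 0.399). Its fold change was -1.21 in pool 1 and -1.05 in pool 2, where the lack of overlap already fixed the sign in both. DESeq2 called it with an adjusted p of 0.0492. ADRA2A, the receptor through which noradrenaline restrains lipolysis in fat cells, stood at 1.90 to 4.03 CPM (median 2.82) in HHD+S, against 4.41 to 13.1 CPM (median 5.54) in HHD (log2 fold change -1.26 ± 0.34, edgeR adjusted p = 0.399). RGS22, NAA35 and MCM9 lay lower without overlap as well, as did a row with an ID only, with log2 fold changes for the named genes of -0.64, -0.28 and -0.49. On the high side FTH1, the heavy chain of the iron store ferritin, stood at 5479.8 to 7267 CPM (median 6215) in HHD+S, against 4273 to 5435 CPM (median 4510.4) in HHD (log2 fold change 0.41 ± 0.11, edgeR adjusted p = 0.399). Ferritin mRNA was abundant in every library, and the groups were separated by a gap smaller than the spread within either. The proteasome subunit gene PSMB4 was higher by 0.41 on the log2 scale, the ribosome assembly factor MRTO4 by 0.43, the SNARE-associated gene SNAPIN by 0.33 and the deubiquitinase OTUB1 by 0.27, each with nearly the same value in both pools except SNAPIN (0.40 in pool 1, 0.19 in pool 2). XAF1, an interferon-induced apoptosis factor, and the row named UBP completed the 7 genes that lay higher. Of the genes in the second table, 15 did not overlap (0.224%), 12 higher (0.18%) and 3 lower (0.0449%).

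**Figure D1:**
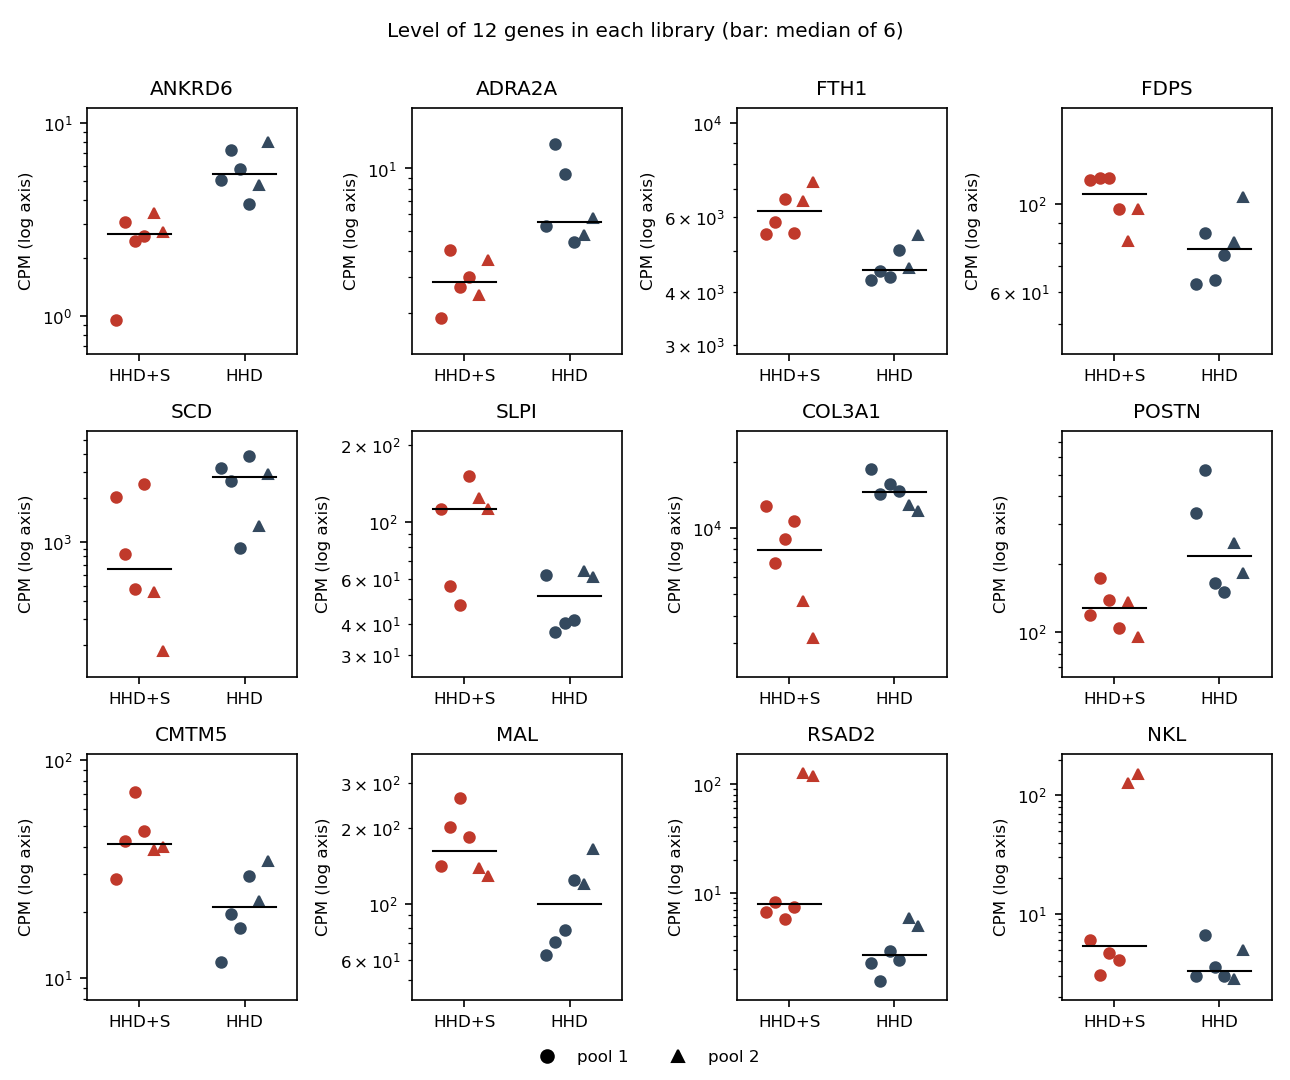
Level of 12 genes in each library, as CPM on log axes, with HHD+S on the left and HHD on the right of each panel, circles for pool 1, triangles for pool 2 and a bar for the median of 6. ANKRD6, ADRA2A and FTH1 are from the genes described for their lack of overlap. RSAD2 and NKL are high only in the 2 HHD+S libraries of pool 2, at 128 and 120.1 CPM for RSAD2.

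Other genes with small p-values overlapped by a few libraries. The heparin-binding growth factor PTN stood at 2.11 to 8.23 CPM (median 3.79) in HHD+S, against 7.45 to 147 CPM (median 11.8) in HHD (log2 fold change -3.42 ± 0.74, edgeR adjusted p = 0.399), and HHD replicates 1 and 2 held 147 and 93.9 CPM of it. Without HHD replicate 1 its fold change was -2.62. The protease inhibitor gene SLPI was higher, at 47.2 to 152 CPM (median 113) in HHD+S, against 37.0 to 63.9 CPM (median 51.1) in HHD (log2 fold change 0.98 ± 0.23, edgeR adjusted p = 0.399), and 4 HHD+S libraries lay above every HHD library. NDUFB11 and NDUFB7, accessory subunits of respiratory complex I, had log2 fold changes of 0.58 and 0.70, and TIMM17B, part of the import channel of the inner mitochondrial membrane, 0.51. All 3 were lowest in HHD replicate 3, which held 11.8 CPM of NDUFB7 where HHD+S libraries held 27.8 CPM or more and the other HHD libraries up to 28.3 CPM. The synaptic adhesion gene NLGN2 (-0.69), the RNA polymerase I factor TAF1D (-0.68), the serpin SERPINI1 (-0.73), the gap junction gene GJA1 (-0.72) and the zinc finger gene PLAGL1 (-0.46) were on the low side of the list.

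Genes of cholesterol synthesis, the direct answer to a statin in cells that sense sterol loss, had small fold changes that lay mostly above 0. Of the 25 listed genes 19 were tested in the first table, and 18 had a fold change above 0, where 48.1% of all genes did, with a median log2 fold change of 0.25, where the median over all genes was -0.01. Past the unadjusted threshold were 2 of the 19, where 4.72% of all genes were higher there. Without HHD replicate 1 the median was 0.14. By pool the median was 0.41 in pool 1 and -0.16 in pool 2, and 17 of 19 lay higher in pool 1 against 5 of 19 in pool 2. Farnesyl diphosphate synthase FDPS, at the branch to sterols and prenyl groups, stood at 80.8 to 117 CPM (median 106) in HHD+S, against 63.0 to 104 CPM (median 77.3) in HHD (log2 fold change 0.40 ± 0.15, edgeR adjusted p = 0.476). The 3 highest FDPS values were all from HHD+S libraries of pool 1, and HHD replicate 6 held 104 CPM, inside the HHD+S range. The sterol reductase TM7SF2 stood at 45.6 to 73.3 CPM (median 58.1) in HHD+S, against 25.4 to 57.5 CPM (median 46.8) in HHD (log2 fold change 0.37 ± 0.17, edgeR adjusted p = 0.576), with 0.68 in pool 1 and -0.26 in pool 2. SREBF2, the gene of SREBP-2, was read in the second table at 239 to 315 CPM (median 262) in HHD+S, against 143 to 247 CPM (median 206) in HHD (log2 fold change 0.42 ± 0.12, edgeR adjusted p = 0.340), and 4 HHD+S libraries exceeded every HHD library.

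Several genes that sterol loss is known to induce had differences that were small beside the spread between libraries. HMGCS1, a synthase early in the mevalonate pathway, had a log2 fold change of 0.06 ± 0.26 and SQLE, squalene epoxidase, 0.21 ± 0.22. HMGCS1 stood at 125 to 278 CPM (median 151) in HHD+S, against 83.1 to 257 CPM (median 157) in HHD, and SQLE at 48.1 to 104 CPM (median 56.9) in HHD+S, against 37.5 to 86.9 CPM (median 51.9) in HHD. HHD+S replicate 2 was the highest library for both, and HHD replicate 6 was next for each. The isomerase IDI1 had a fold change of 0.48 ± 0.26 and the SREBP anchor INSIG1 0.33 ± 0.19. Of the 6 genes of sterol uptake tested, 1 was higher and 5 lower with 0 past the unadjusted threshold, and their median was -0.08. The statin exporter gene ABCB1 had a fold change of 0.28 ± 0.15 in the second table, and the multidrug transporter ABCC1 -0.43 ± 0.16. HHD replicate 3 alone held 46.1 CPM of ABCC1, and without it the value was -0.25.

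Of 12 cholesterol efflux genes tested, 4 were higher and 8 lower, with 1 past the unadjusted threshold each way and a median of -0.05. PLTP, the phospholipid transfer protein of HDL, stood at 16.0 to 24.3 CPM (median 19.7) in HHD+S, against 23.7 to 71.5 CPM (median 31.0) in HHD (log2 fold change -0.89 ± 0.29, edgeR adjusted p = 0.416), and 5 of 6 HHD+S libraries lay below every HHD library. HHD replicate 2 held 71.5 CPM of it, and without that library the fold change was -0.59. The row APOA1_2, of the main protein of HDL, was higher at 204 to 369 CPM (median 255) in HHD+S, against 115 to 228 CPM (median 184) in HHD (log2 fold change 0.58 ± 0.19, edgeR adjusted p = 0.440). It is a row with a copy number, so its reads may be shared with another row of the same name. ABCA1_1, a row of the cell cholesterol exporter, had a fold change of -0.25 ± 0.18 and APOE, which carries lipid out of macrophages and fat cells, -0.13 ± 0.18.

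The other outlets of the mevalonate pathway had medians near 0. Of 13 genes of prenylation and small GTPases, 6 were higher and 7 lower, with a median of -0.02 and 1 past the unadjusted threshold. That gene, the farnesyltransferase subunit FNTB, stood at 39.8 to 56.7 CPM (median 49.8) in HHD+S, against 32.7 to 49.7 CPM (median 42.1) in HHD (log2 fold change 0.26 ± 0.12, edgeR adjusted p = 0.576). RHOB, a small GTPase gene that rises in many cell types when its prenyl group is lacking, stood at 515 to 699.9 CPM (median 653) in HHD+S, against 499 to 854 CPM (median 656) in HHD with a log2 fold change of -0.07 ± 0.16. Of 11 genes of ubiquinone, dolichol and heme A synthesis, 6 were higher and 5 lower with a median of 0.06, and COQ2, which joins the prenyl tail to the ubiquinone ring, had 0.19 ± 0.12. In endothelial cells statins are known to raise KLF2 and NOS3, the nitric oxide synthase. Here KLF2 had -0.04 ± 0.23 and NOS3 -0.13 ± 0.24, both from the second table. Of 10 endothelial KLF and nitric oxide genes 3 were higher and 7 lower, with 0 past the unadjusted threshold. Of 7 genes linked with muscle under statins, 5 were higher, where 48.1% of all genes were. Past the unadjusted threshold were 2, where 4.72% of all genes were higher there. The chaperone CRYAB stood at 304 to 544 CPM (median 425) in HHD+S, against 258 to 422 CPM (median 288) in HHD (log2 fold change 0.49 ± 0.17, edgeR adjusted p = 0.440), and the creatine synthesis enzyme GATM had 0.33 ± 0.15.

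**Figure D2:**
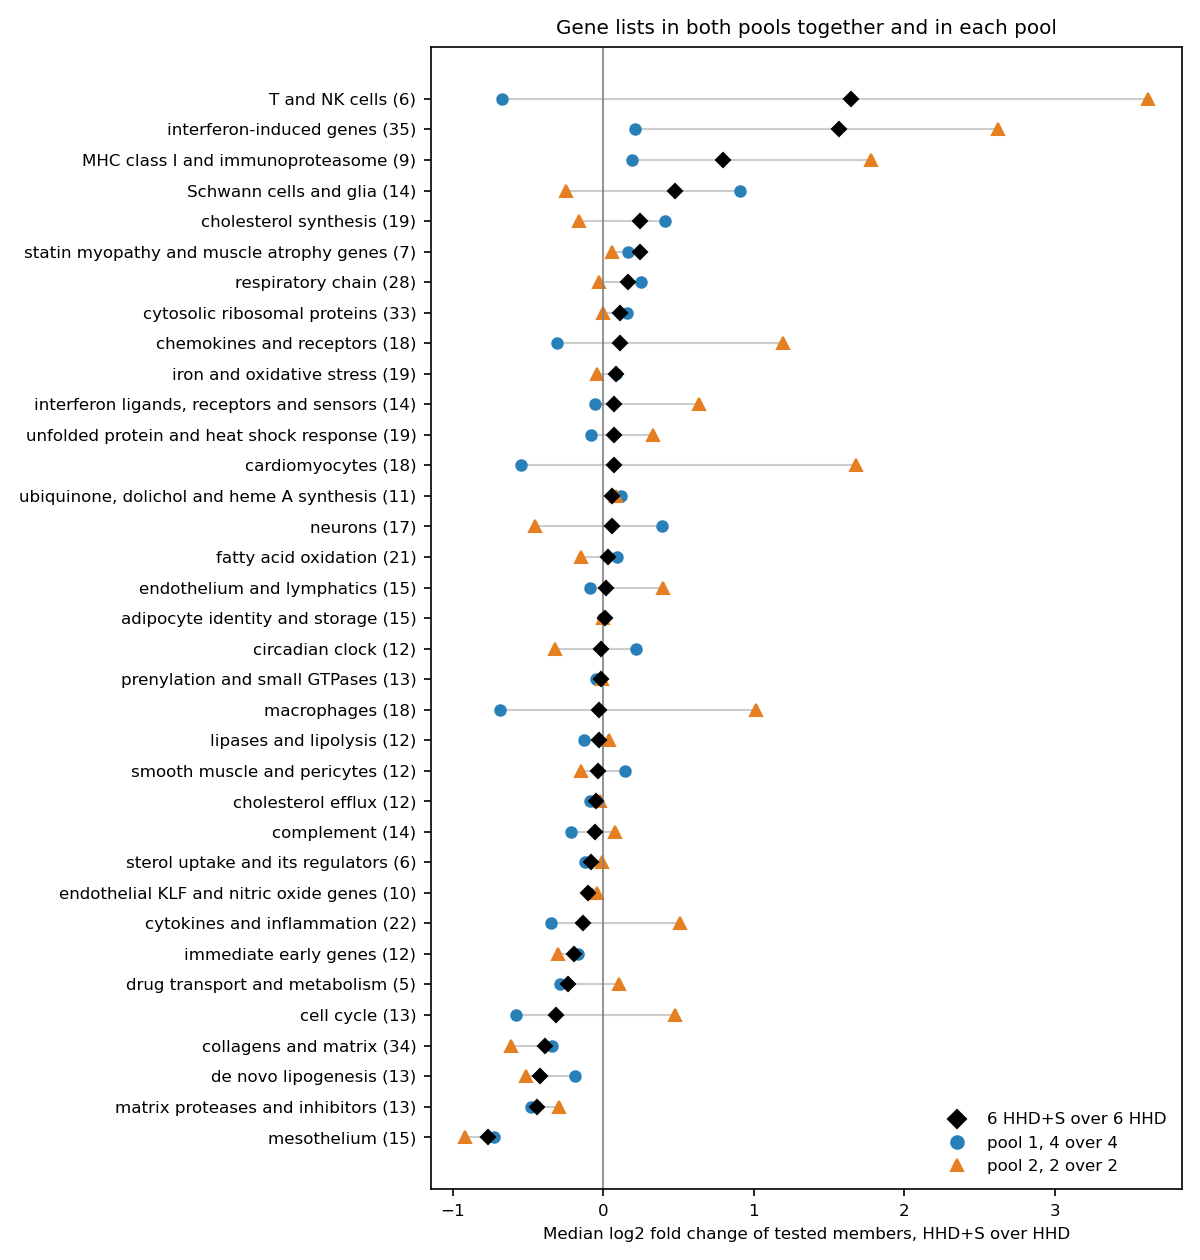
Median log2 fold change, HHD+S over HHD, of the tested members of each gene list with at least 5 of them (number in brackets), for all 12 libraries (diamonds), for pool 1 (circles, 4 against 4) and for pool 2 (triangles, 2 against 2). Collagens and mesothelial genes lie left of 0 in both pools, cholesterol synthesis and Schwann cell genes lie right of 0 in pool 1 only, and the interferon list lies far to the right in pool 2 (2.62). The T and NK cell list includes LCK and CD8A, which passed the filter only with the WD+S libraries included, so nothing is read from it.

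Fat cell identity genes lay on both sides of 0, and so did enzymes that make fatty acids from glucose. Of 15 adipocyte identity and storage genes, 8 were higher and 7 lower, 0 passed the unadjusted threshold and the median was 0.01. PPARG, the master regulator of fat cells, averaged 172 ± 28.4 CPM over the HHD+S libraries and 170.2 ± 59.6 CPM over those of HHD (SD, n = 6 each), and LEP, the gene of leptin, 21.8 ± 7.88 CPM over the HHD+S libraries and 29.5 ± 14.7 CPM over those of HHD. Of 13 lipogenic genes 5 were higher and 8 lower, where 51.9% of all genes were lower, with 2 past the unadjusted threshold each way and a median of -0.42. That median moved with single libraries, to -0.69 without HHD+S replicate 1, -0.26 without HHD+S replicate 3, -0.27 without HHD+S replicate 6 and -0.23 without HHD replicate 4. SCD, which puts the double bond into oleate, stood at 180.1 to 2513 CPM (median 652) in HHD+S, against 912 to 3862 CPM (median 2773) in HHD (log2 fold change -1.20 ± 0.50, edgeR adjusted p = 0.546). Its HHD+S values fell into separate levels, with 2024 and 2513 CPM in replicates 1 and 4 and 180.1 to 826 CPM in the others. ME1, which makes NADPH for fatty acid synthesis, was highest in the same HHD+S libraries, at 202 CPM in replicate 4 and 188 CPM in replicate 1, with a fold change of -0.82 ± 0.38. FASN_2, a row of fatty acid synthase, had -0.72 and ACLY, ATP citrate lyase, -0.58, neither past the unadjusted threshold. Without HHD replicates 3 and 5, which held reads of both sexes, the list median was -0.08. Against these, the desaturase FADS1 of polyunsaturated fat stood at 94.2 to 166 CPM (median 145) in HHD+S, against 74.9 to 129 CPM (median 99.9) in HHD (log2 fold change 0.46 ± 0.15, edgeR adjusted p = 0.440), and ACACB, whose product malonyl-CoA restrains fatty acid oxidation, was higher by 0.45 ± 0.17. Of 12 lipase and lipolysis genes 1 passed the unadjusted threshold, ADRA2A, described above. LPL, lipoprotein lipase, had 0.08 ± 0.22 in the second table.

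Collagen and matrix genes were lower in HHD+S nearly throughout. Of 34 tested, 33 had a fold change below 0, where 51.9% of all genes did, and 12 passed the unadjusted threshold, all lower, where 3.73% of all genes did. The median was -0.39, with -0.34 in pool 1 and -0.61 in pool 2, and 27 of the 34 had the same sign in both pools, where 50% of all genes did. COL3A1, a fibrillar collagen chain, stood at 3163 to 12603 CPM (median 7945) in HHD+S, against 11999 to 18439 CPM (median 14538) in HHD (log2 fold change -0.90 ± 0.29, edgeR adjusted p = 0.40), and all HHD+S libraries but replicate 1, at 12603 CPM, lay below every HHD library. Its lowest values, 4649 and 3163 CPM, were those of the pool 2 HHD+S libraries. COL14A1, which sits on collagen fibrils, stood at 220.2 to 501 CPM (median 345) in HHD+S, against 387 to 792 CPM (median 631) in HHD (log2 fold change -0.80 ± 0.22, edgeR adjusted p = 0.399), and COL5A2, a chain that sets fibril width, at 379 to 754 CPM (median 576) in HHD+S, against 684 to 1059 CPM (median 788) in HHD (log2 fold change -0.52 ± 0.14, edgeR adjusted p = 0.399). The matricellular gene POSTN (periostin) was lower (log2 fold change -1.07 ± 0.27, edgeR adjusted p = 0.399), with 523 CPM in HHD replicate 2, more than in any other library. FN1_2, a row of fibronectin, had -1.27, and without that library -0.73. The lysyl hydroxylase PLOD2 (-0.74), FNDC1 (-0.82) and CTHRC1 (-2.06), a collagen-related secreted gene, were lower and past the unadjusted threshold. Chains of the basement membrane had smaller differences, with -0.16 ± 0.19 for COL4A1 and -0.15 ± 0.19 for COL4A2.

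Of the matrix proteases and their inhibitors 9 of 13 were lower, where 51.9% of all genes were, with a median of -0.44. Past the unadjusted threshold were 5 of them, where 3.73% of all genes were lower there. ADAMTS2, which trims procollagen, stood at 99.2 to 216 CPM (median 152) in HHD+S, against 191 to 331 CPM (median 252) in HHD (log2 fold change -0.70 ± 0.20, edgeR adjusted p = 0.399), and 4 of 6 HHD+S libraries lay below every HHD library. With the pool as a term in the second table ADAMTS2 passed the threshold, at a log2 fold change of -0.72 (edgeR adjusted p = 0.0489). MMP14_1, a row of a membrane collagenase, had -0.35 ± 0.15. The growth factor gene TGFB3, a driver of matrix synthesis, stood at 70.3 to 166 CPM (median 105) in HHD+S, against 98.8 to 188 CPM (median 176) in HHD (log2 fold change -0.55 ± 0.23, edgeR adjusted p = 0.546). Markers of the surface mesothelium, described next, were lower as well, and their part in the matrix values was not tested. In bulk tissue, fewer cells of a type and less RNA per cell cannot be told apart.

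Of 20 listed mesothelial genes 15 were tested, and 13 were lower and 2 higher, where 51.9% of all genes were lower. Past the unadjusted threshold were 4 lower and 1 higher, where 3.73% of all genes were lower and 4.72% higher. The median was -0.77, with -0.72 in pool 1 and -0.92 in pool 2. Summed over the 17 found in the first table, the level ran from 482 to 1356 CPM in HHD+S libraries and 556 to 1701 CPM in HHD libraries, so the groups overlapped. The retinoic acid enzyme ALDH1A2 (the row ENSSSCG00000025578) stood at 66.4 to 147 CPM (median 95.9) in HHD+S, against 100.2 to 234 CPM (median 174) in HHD (log2 fold change -0.77 ± 0.22, edgeR adjusted p = 0.399), and a second row of that name had -1.0 (DESeq2 adjusted p = 0.0377). BNC1, a transcription factor of mesothelium, was not counted in replicates 1, 4 and 6 of HHD+S and reached 3.12 CPM in replicate 3, against 0.20 to 17.8 CPM (median 6.0) in HHD (log2 fold change -3.26 ± 0.99, edgeR adjusted p = 0.399). With reads of the 12 libraries alone BNC1 did not pass the filter on low counts, and the list median was -0.69. PKHD1L1 stood at 7.82 to 27.1 CPM (median 13.1) in HHD+S, against 16.0 to 51.1 CPM (median 30.5) in HHD (log2 fold change -1.17 ± 0.37, edgeR adjusted p = 0.399). HHD+S replicate 3 was the highest of its group for both, with a mean log2 CPM of the list of 5.78 where the other HHD+S libraries lay between 3.35 and 4.23. HHD ranged from 3.69 in replicate 6 to 6.29 in replicate 2. Without HHD replicate 2 the list median was -0.34. SLPI, also on this list, ran against it with 0.98, as given above.

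**Figure D3:**
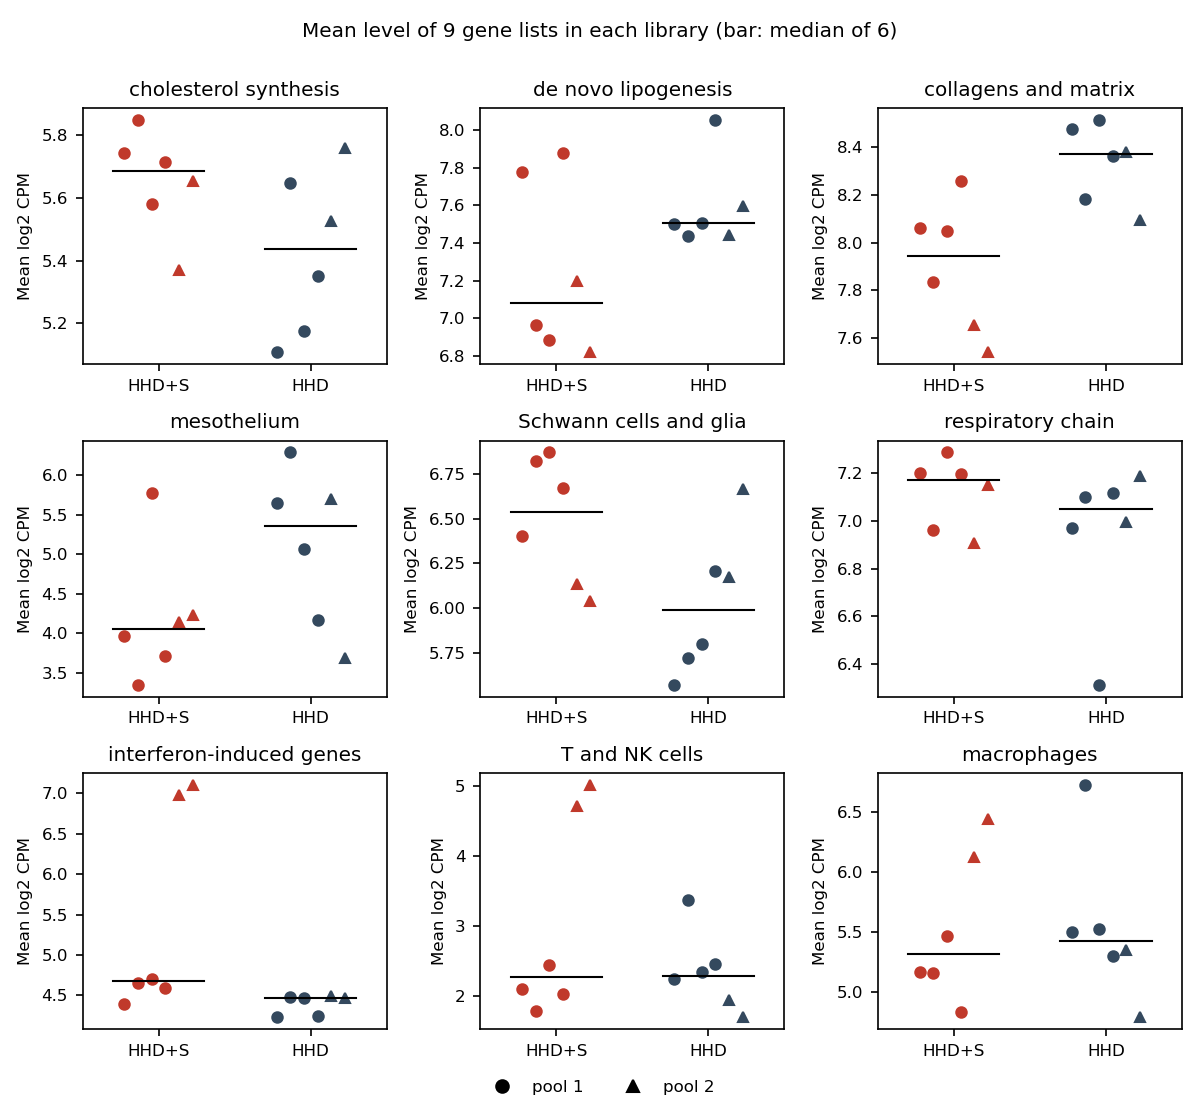
Mean log2 CPM of the tested members of 9 gene lists in each library, HHD+S left and HHD right, circles for pool 1, triangles for pool 2 and a bar for the median of 6. The collagen list is lower in HHD+S with some overlap, the mesothelial list spreads widely within both, from 3.35 to 5.78 in HHD+S and from 3.69 to 6.29 in HHD, and the interferon list is at 6.98 and 7.11 in the 2 HHD+S libraries of pool 2. The T and NK cell panel includes LCK and CD8A, which passed the filter only with the WD+S libraries included, so nothing is read from it.

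Genes of Schwann cells, the glia that wrap the nerves of the fat, were higher in HHD+S in pool 1 and not in pool 2. Of 14 tested, 13 had a fold change above 0, where 48.1% of all genes did. Past the unadjusted threshold were 7, where 4.72% of all genes were higher there. The median was 0.48, with 0.91 in pool 1 and -0.25 in pool 2. All 14 were higher in pool 1 and 12 of 14 lower in pool 2, and 9 had a pool difference past the unadjusted threshold, where 10.9% of all genes did. CMTM5, a myelin membrane gene, stood at 28.6 to 71.7 CPM (median 41.4) in HHD+S, against 11.8 to 34.5 CPM (median 21.0) in HHD (log2 fold change 1.0 ± 0.23, edgeR adjusted p = 0.399), and 5 of 6 HHD+S libraries lay above every HHD library. The myelin proteolipid MAL had 141, 201, 262 and 184 CPM in pool 1 HHD+S libraries and 62.5, 70.5, 79.1 and 124 CPM in those of HHD, whereas in pool 2 it had 138 and 129 CPM in HHD+S and 120.3 and 164 CPM in HHD. The adhesion gene CDH19 and the row SOX10_2, of the transcription factor that defines these glia, had 0.58 and 0.94 over all libraries. Summed over the list, levels ran from 1845 to 3993 CPM in HHD+S libraries and 1487 to 3438 CPM in HHD libraries. Of 17 neuron genes 15 were higher in pool 1 and 2 in pool 2, and over all libraries 10 were higher and 0 passed the unadjusted threshold.

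The clock repressor gene NR1D1 (REV-ERB alpha) was higher, at 3.45 to 7.12 CPM (median 4.19) in HHD+S, against 0.756 to 4.69 CPM (median 1.48) in HHD (log2 fold change 1.28 ± 0.38, edgeR adjusted p = 0.399). Every pool 1 HHD+S library, at 3.45 CPM or more, exceeded every pool 1 HHD library, at 1.80 CPM or less. How many of all genes had this ordering in pool 1 was not counted, so nothing is read from it. HHD replicate 6, of pool 2, held 4.69 CPM. The levels of NR1D1 rested on few reads. Of 12 clock genes 6 were higher and 6 lower. A pool difference past the unadjusted threshold was held by 6, where 10.9% of all genes had one. In pool 1 the activator ARNTL had -1.42 and the output gene DBP_2 0.66, against 0.53 and -0.71 in pool 2. The hour at which tissue was taken is not in the labels used here.

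Interferon-induced genes were higher in HHD+S, by far more in pool 2 than in pool 1. Of 35 tested, 34 had a fold change above 0, 31 passed the unadjusted threshold (4.72% of all genes were higher there), and the median was 1.57, with 0.21 in pool 1 and 2.62 in pool 2. Without HHD+S replicates 5 and 6 the median was 0.21, with 25 of 35 above 0. In the fit that gave each pool its own change, 21 of the 35 rose in pool 2 at an adjusted p under 0.05, and none passed in pool 1; over all genes 106 (0.933%) rose and 10 (0.088%) fell in pool 2, and 0 (0%) passed in pool 1, where 8.48% of genes passed the unadjusted threshold. These pool 2 calls compare 2 libraries with 2 and borrow the spread of the other libraries, and a fit of the pool 2 libraries without the others called 0 genes, with 1641 past the unadjusted threshold. RSAD2, an antiviral enzyme, had 128 and 120.1 CPM in the pool 2 HHD+S libraries, against 5.92 and 4.97 CPM in those of HHD. In pool 1 it had 6.66, 8.25, 5.79 and 7.44 CPM in HHD+S, all above the 2.27, 1.54, 2.90 and 2.40 CPM in HHD. The pool 1 fold change was 1.60 and that of pool 2 4.50, and without HHD+S replicates 5 and 6 the fold change over the other 10 libraries was 1.10. OAS1, which makes the messenger that activates RNase L, had the same ordering in pool 1, with 66.6, 97.7, 111 and 81.1 CPM in HHD+S and 46.9, 31.9, 59.9 and 59.1 CPM in HHD, and 0.85 and 2.85 in the 2 pools. How many of all genes had this ordering in pool 1 was not counted, so nothing is read from it. In the second table IFI6 had 1.0 in pool 1 and 4.46 in pool 2, and ISG15, a ubiquitin-like tag, 1.09 and 4.35. For the guanylate-binding protein GBP1 the pool 1 groups overlapped, with 0.23 in pool 1 and 4.91 in pool 2, and so did those of the chemokine CXCL10, with 0.16 and 5.95.

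**Figure D4:**
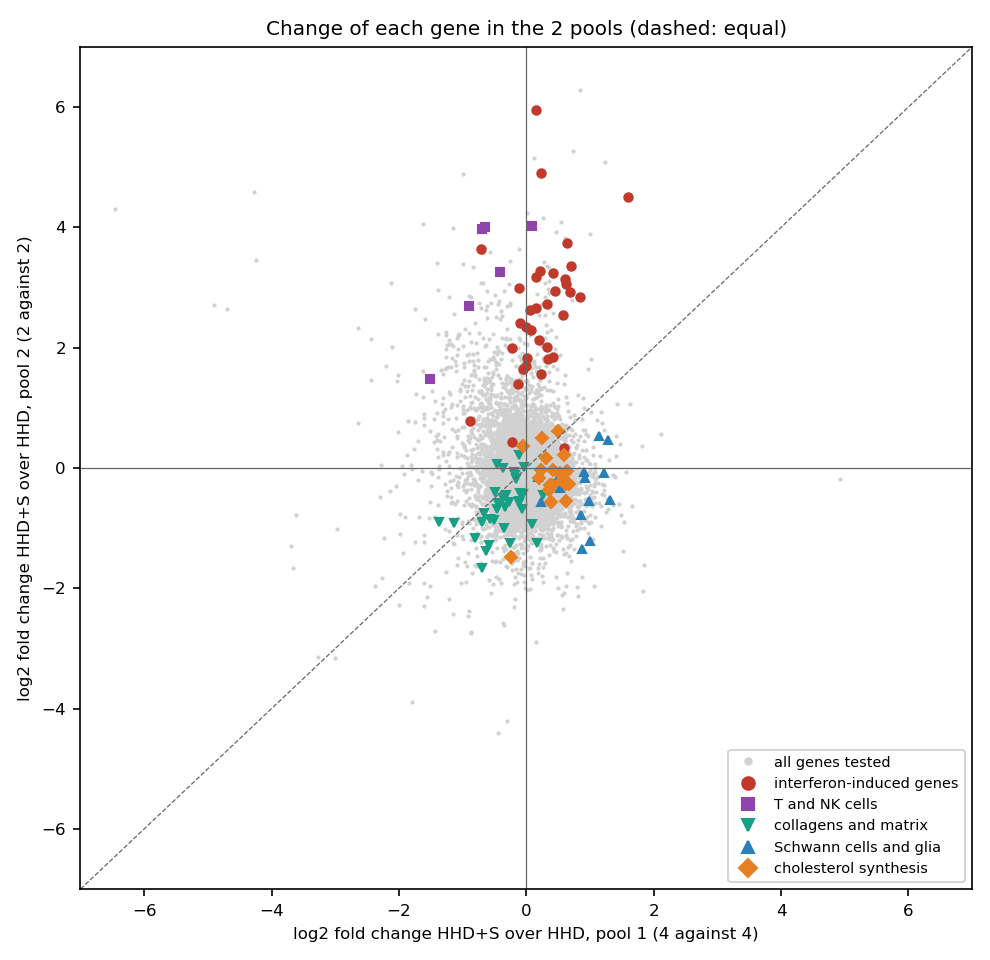
Log2 fold change, HHD+S over HHD, of each tested gene in pool 1 (horizontal axis, 4 against 4 libraries) and in pool 2 (vertical axis, 2 against 2), with 5 gene lists in colour and the line of equal change dashed; 1 gene lies outside the axes. Interferon-induced genes mostly lie high above the line, collagens mostly below 0 on both axes, and Schwann cell genes right of 0 and mostly below it in pool 2. The T and NK cell points include LCK and CD8A, which passed the filter only with the WD+S libraries included. Nothing is read from these points as a set.

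All 9 tested genes of MHC class I and the immunoproteasome were higher, where 48.1% of all genes were. Past the unadjusted threshold were 7, where 4.72% of all genes were higher there. The median was 0.80 over all libraries, 0.19 in pool 1 and 1.78 in pool 2. All 4 of MHC class II were higher over all libraries, with a median of -0.20 in pool 1 and 1.60 in pool 2. Without HHD+S replicates 5 and 6 the class I median was 0.22, and without replicate 6 alone 0.51. PSMB8, an immunoproteasome subunit read in the second table, had 177 and 222 CPM in the pool 2 HHD+S libraries and 40.6 to 59.7 CPM in the others, all above the 20.8 to 39.1 CPM of HHD. Of 28 listed genes of T and NK cells 6 had enough reads in the first table. With reads of the 12 libraries alone it was 4, since LCK and CD8A passed the filter on low counts only with the WD+S libraries included. Nothing is therefore read from a count or median of the 6. NKL, the gene of the cytotoxic granule peptide NK-lysin, was the 1 gene (0.0088% of those tested) whose change differed between the pools at the adjusted threshold, by 5.02 (SE 0.72, edgeR adjusted p = 0.013). It had 128 and 150.2 CPM in the pool 2 HHD+S libraries and 3.07 to 6.03 CPM in the other 4, against 2.82 to 6.69 CPM (median 3.29) in HHD. The number of genes called moved with the fit, to 173 in a fit of the 12 libraries only, 28 with no filter on low counts and 0 with limma-voom. The call of NKL was lost without HHD+S replicate 6, HHD replicate 5 or HHD replicate 6, and with HHD replicates 3 and 5 left out. Of the genes in the second table, 66 (0.987%) differed between the pools, 55 (0.823%) with the larger change in pool 2, among them GNLY, CORO1A, CIITA, IRF1, NLRC5 and the antigen peptide transporters TAP1 and TAP2, named here after their values were seen. GNLY may be the same gene as NKL under another name, so they are not read as separate results.

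Markers of T and NK cells were highest in HHD+S replicates 5 and 6. Over the 24 T and NK cell markers found in the first table, the summed level ran from 328 to 421 CPM in pool 2 HHD+S libraries and from 37.9 to 49.6 CPM in pool 1 HHD+S libraries, against 30.6 to 119 CPM in HHD. KLRD1, EOMES and the row NCR1_1 were at 0 in all 12 libraries. B and plasma cell markers were highest in HHD replicate 2 instead, and over the 12 found the sum ran from 10.4 to 45.0 CPM in HHD+S libraries and 19.3 to 162 CPM in HHD libraries, with PAX5 at 0 in all 12. Macrophage markers stood at 2641 to 3789 CPM in sum in pool 2 HHD+S libraries, at 1029 to 1969 CPM in pool 1 HHD+S libraries, and at 988 to 3549 CPM in HHD, and 17 of 18 tested were higher in pool 2 and 17 of 18 lower in pool 1. Red cell markers were lowest there, with 4.64 and 34.4 CPM of the haemoglobin gene HBB in HHD+S replicates 5 and 6, against 83.3 to 332 CPM (median 199) in HHD. Lymph node and thymus markers summed to 93.3 to 299.9 CPM in HHD+S libraries and 107 to 229 CPM in HHD libraries, with PTCRA, CD1A, CHRNA1 and FOXN1 at 0 in all 12. Heart muscle markers summed to 61.5 to 1772 CPM in HHD+S libraries and 143 to 1292 CPM in HHD libraries. TTN was at 0 in all 12 libraries. The median log2 fold change of the tested markers was -0.55 in pool 1 and 1.68 in pool 2. MYL7 and MYL4 among them passed the filter only with the WD+S libraries included, so nothing is read from these medians. The part of all these cell types in the interferon values was not tested. By letter in the file names HHD+S replicate 6 shares B with HHD+S replicate 3 and HHD replicate 2 and HHD+S replicate 5 does not, and Y-linked reads marked replicate 5 and not replicate 6. The 8 WD+S libraries ranged from 8.35 to 139.9 CPM of RSAD2, so the 2 HHD+S libraries of pool 2 lay inside that range and every other library of HHD+S and HHD below it.

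Of the 10 genes that fell in pool 2, 4 were on the matrix lists: COL3A1, LUM (a small leucine-rich proteoglycan of collagen fibrils), SPARC and ADAMTS2. The others were the chemokine CXCL14 and CPXM1, C5ORF13, BMX, RBM3 and CD302, which are on no list. COL3A1 fell by 1.66 on the log2 scale in pool 2 with -0.69 in pool 1. LUM fell by 1.25 and had 0.17 in pool 1, and CXCL14 fell by 1.36 with 0.21 in pool 1. Of all 116 genes called in pool 2, 69 had the same sign in pool 1, where 50% of all genes tested did. Among the 116, 2 had a pool 1 fold change over 1 in size on the log2 scale.

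Most respiratory chain and ribosomal protein genes had small fold changes above 0, which rested in part on 1 library. Of 28 respiratory chain genes 25 were higher, 2 past the unadjusted threshold, with a median of 0.17, and of 33 ribosomal protein genes 27 were higher, 1 past it, with a median of 0.11. Over all genes 48.1% were higher and 4.72% were higher past that threshold, so the counts past it were near the background. HHD replicate 3 had the lowest mean log2 CPM of both lists, 6.31 and 8.52, where the other 11 libraries lay between 6.91 and 7.29 for the respiratory chain and between 9.18 and 9.56 for ribosomal proteins. Without it the medians were 0.05 and 0.01. This is one of the libraries with reads of both sexes.

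Cell cycle genes were lower in 12 of 13 cases, 2 past the unadjusted threshold, where 3.73% of all genes were lower there, with a median of -0.32, and here HHD replicate 2 was high. The mitotic kinesin KIF11 stood at 1.54 to 4.64 CPM (median 2.15) in HHD+S, against 1.97 to 17.2 CPM (median 4.60) in HHD (log2 fold change -1.27 ± 0.45, edgeR adjusted p = 0.459), and the highest value, 17.2 CPM, was that of HHD replicate 2. Without that library the list median was 0.07 and the fold change of KIF11 -0.64. The same library held 168 CPM of the macrophage receptor MARCO, of which HHD+S held at most 8.15 CPM and the other HHD libraries at most 2.02 CPM. It also held 737 CPM of the stromal chemokine CXCL12, which stood at 195 to 283 CPM (median 232) in HHD+S, against 281 to 737 CPM (median 291) in HHD (log2 fold change -0.68 ± 0.25, edgeR adjusted p = 0.469), and without it the fold change was -0.37. The lipid-linked macrophage gene GPNMB, read in the second table, was lower, at 14.0 to 47.9 CPM (median 20.7) in HHD+S, against 24.8 to 118 CPM (median 48.8) in HHD (log2 fold change -1.18 ± 0.37, edgeR adjusted p = 0.361), and SPP1 (osteopontin) was higher, at 98.4 to 293 CPM (median 182) in HHD+S, against 55.7 to 169 CPM (median 121) in HHD (log2 fold change 0.68 ± 0.27, edgeR adjusted p = 0.528). Of 13 listed genes of granulocytes and mast cells 3 were tested, and with reads of the 12 libraries alone 1, so nothing is read from them as a group. FCER1A, a chain of the IgE receptor, stood at 1.21 to 2.67 CPM (median 1.89) in HHD+S, against 2.23 to 14.6 CPM (median 3.76) in HHD (log2 fold change -1.77 ± 0.51, edgeR adjusted p = 0.399), and HDC, which makes histamine, had -1.41 ± 0.46, both on few reads.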

How the data were processed

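The authors deposited 2 tables per library, and, per the file headers, the first holds whole-number counts (unique exon reads) per Sscrofa10.2 gene in 22861 rows and the second counts (unique gene reads) and RPKM for 10157 names. The deposited RPKM values entered no test. Per the labels' protocols, RNA with a quality indicator above 7 was made into libraries with a kit that does not mark strand, so reads of antisense or overlapping genes are not separable. The tools named, per the submitters' processing notes, are bcl2fastq 2.17.1.14 with build Sscrofa10.2, and the sources used here give no aligner or counter. Of the rows 6101 carried an ID only, of which 1069 were given a symbol from a reference list, and 2891 carry a copy number and may share reads with like rows. No coordinates or sequences were used here, and some genes are not reported here.

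Counts of all 20 libraries were fitted together with edgeR 4.0.16 in R 4.3.3 (TMM, minimum count 10, minimum total 15, quasi-likelihood F test, Benjamini-Hochberg over all genes, threshold 0.05). The change in each pool and its difference came from a fit with group and pool combined. Standard errors are the size of the log2 fold change over the square root of F and are approximate. DESeq2 1.42.0 and limma 3.58.1 (voom) were alternatives, with 5 CPM in 6 libraries as a stricter filter. The test made 2 false calls on simulated counts. Where a gene has no usable row in the first table the second was used, and is named. The level of a list is the mean log2 CPM of its tested members, with a prior count of 2.

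Genes were named by rule: the 15 with a symbol and the smallest p in each direction, up to 15 DESeq2 calls, up to 4 members of each of 41 lists by p, 20 genes of statin, fat and matrix biology, the 10 smallest p for the pool difference and up to 20 genes without overlap. Other members of a list, named with it, were chosen after their values were seen. The comparison, the lists and the rules were chosen with earlier results of these data known.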

Additional observations from a re-analysis of the deposited data

Results flagged for a closer look

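Of 332 groups of 6 values looked at (list levels and named genes in each group), 43 had 1 library far from the other 5; the rule used sets about 1 in 20 single groups apart by chance, and these groups share libraries and include genes named for their values, so no share is read from the count. HHD replicate 2 was that library in 15. It stood apart in the cell cycle list (mean log2 CPM 4.32), in interferon ligands, receptors and sensors (4.88) and, in CPM, in PRSS35 (14.2), PLTP (71.5), FN1_2 (12060.0), IL2RB (9.26), CXCL12 (737), KIF11 (17.2), CCNB1 (13.6), MARCO (167.5), CR2 (121), CFI (439), VCAM1 (534), HP (188) and CORO1A (35.4). HHD replicate 3 stood low in the respiratory chain (6.31) and ribosomal (8.52) lists and in PSMB8 (20.8), and high in sterol uptake (7.02) and ABCC1 (46.1). HHD replicate 6 stood apart in CDH19 (41.7), NR1D1 (4.69), GATM (192), EGR2 (156.5) and ABCB1 (57.7), and was low for lymph node and thymus genes (5.73). HHD replicate 1 was high in the atrial light chains MYL7 (36.3) and MYL4 (51.6) and in CTHRC1 (26.7), and low in UBP (9.32). HHD replicate 4 was high in the lipogenesis list (8.05), CD8A (4.41) and CRYAB (422).

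In HHD+S, replicate 3 was high in the mesothelial list (5.78) and in BNC1 (3.12), PKHD1L1 (27.1) and NR1D1 (7.12), and low in LEP (6.23). Replicate 2 was high in HMGCS1 (278), SQLE (104) and the vascular regulator KLF4 (477), and replicate 6 in OTUB1 (92.9) and the secreted peroxidase GPX3 (5003).

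The change with atorvastatin differed between the pools, by an interaction term with an adjusted p under 0.05, for NKL in the first table, with pool 2 exceeding pool 1 by 5.02 on the log2 scale. In the second table the same held for GNLY (4.94), GBP1 (4.61), LCK (4.33), IL2RB (3.42), IRF1 (2.999) and CORO1A (2.96), and in the other direction for the water channel AQP4 (-3.50) and the chemokine CXCL14 (-1.71). GNLY may be NKL under another name and is then no separate result.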

How the results depend on the processing

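No paired analysis was possible because the labels carry no replicate numbers that could link the groups, and the numbers used here follow the order of deposit. Under 25 alternatives the number of genes with an adjusted p under 0.05 was 0 in the first table except with DESeq2 (11). In the second it was 0 except with DESeq2 (12) and with pool as a term (2, ADAMTS2 and ALDH1A2). The 960 genes at an unadjusted p under 0.05 became 1641 in pool 2 alone (871 higher, 770 lower), 391 without the libraries of letter B, and 658 to 1292 as each library was left out. Their balance of 536 higher and 424 lower turned to 573 and 677 without HHD replicates 3 and 5 and to 636 and 638 with no filter. Leaving out those replicates was chosen after the data were seen. The pool difference, called for 1 gene, was called for 173 in a fit of the 12 libraries only, 28 with no filter, 66 in the second table (an alternative added after the data were seen), 0 with limma-voom and 0 to 2 as each library was left out. Without HHD replicates 3 and 5 the 1 gene called was AQP4 in place of NKL.

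Of 126 genes followed, 9 of 3124 values changed direction; a value within 1 SE of 0 was taken to have none. In pool 2 alone TM7SF2 had -0.27, AQP4 -1.61, MARCO 4.30, CR2 0.74, VCAM1 0.61 and EGR2 -0.55. In pool 1 alone IL2RB had -0.41 and CORO1A, in the second table, -0.38. MARCO ran from -4.50 to 1.81 as each library was left out, above 0 without HHD replicate 2 only. Of 40 list medians, 11 changed sign without HHD+S replicates 5 and 6. The cause of these changes was not tested. One count was worth under 1 CPM in every library, so genes of a few CPM rest on few reads; intervals of counting error were not computed.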
